A study of Mus musculus with 3 samples.

Results

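The vascular endothelial growth factor (VEGF) family comprises 10 genes here, namely the ligands Vegfa, Vegfb, Vegfc, Vegfd (formerly Figf) and Pgf, the receptor tyrosine kinases Flt1, Kdr and Flt4, and the coreceptors Nrp1 and Nrp2. Its members were taken by symbol, as all probe sets for which the platform annotation gave 1 of these symbols as the only gene, and this gave 25 of the 34945 probe sets assigned to a single gene and 10 of 18193 genes. The measurements came from PDL-L2, an immortalised line derived from fibroblasts of the mouse periodontal ligament (PDL), the vascularised connective tissue between tooth root and jaw bone. Cells received either an siRNA pool against endoglin (siENG), the accessory TGF-β receptor, or a control siRNA pool (siCont), and 48 h later were cultured for 12 h with recombinant human BMP-2 at 250 ng/ml or with vehicle. The 3 conditions were siENG with BMP-2, siCont with BMP-2 and siCont with vehicle, each read on 1 Affymetrix array of total RNA. All 3 conditions were transfected, and the labels give a medium with ascorbic acid and β-glycerophosphate for the BMP-2 exposure. The combination of siENG with vehicle is not analysed here, and each condition is 1 array, so variation between cultures was not measured and no test or p-value is given.

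VEGF ligands are secreted cystine-knot dimers that act mainly on endothelial cells. VEGF-A signals through FLT1 and KDR, and KDR is its main signalling receptor. Among the receptor kinases, VEGF-B and placental growth factor (PGF) bind FLT1 only, whereas VEGF-C and VEGF-D activate FLT4, the receptor of lymphatic endothelium. Neuropilins bind some VEGF forms beside these kinases and also serve as receptors for class 3 semaphorins. Mesenchymal cells such as fibroblasts are known as sources of these ligands. In the deposited data a signal is a linear intensity per probe set, and a signal of 1 probe set cannot be set against that of another. A log2 ratio was read here against its robust SD, which is the spread of log2 ratios over all mouse probe sets of similar signal in the same comparison and does not measure variation between cultures. A probe set was kept in a comparison where the higher of its 2 signals reached 23.0, the median of all mouse probe sets over the arrays. A gene was counted by its brightest probe set, at a ratio of 2 or more or of 0.5 or less.

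Pgf, Nrp1, Vegfd and Vegfa were the members whose bright probe sets differed most between arrays. For these the 250 bases before the first listed start site are given, from RefSeq on GRCm38.p6. Those before the second listed start of Vegfa are given as well. Capitals mark the letters ACGTG or GCGTG on either strand (written CACGT or CACGC on the other), the core bound by hypoxia-inducible factors, and the palindrome GGCGCC, a GC-rich element known from BMP-responsive genes. The windows are chr12:85177314-85177563 on the minus strand for Pgf, chr8:128358823-128359072 on the plus strand for Nrp1, chrX:164373272-164373521 on the plus strand for Vegfd and chr17:46032378-46032627 and chr17:46025164-46025413 on the minus strand for the first and second start of Vegfa.
Pgf: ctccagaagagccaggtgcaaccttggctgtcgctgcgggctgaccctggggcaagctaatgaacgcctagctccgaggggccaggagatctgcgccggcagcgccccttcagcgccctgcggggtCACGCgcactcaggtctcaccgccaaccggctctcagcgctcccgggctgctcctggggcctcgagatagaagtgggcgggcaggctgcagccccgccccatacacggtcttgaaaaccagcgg
Nrp1: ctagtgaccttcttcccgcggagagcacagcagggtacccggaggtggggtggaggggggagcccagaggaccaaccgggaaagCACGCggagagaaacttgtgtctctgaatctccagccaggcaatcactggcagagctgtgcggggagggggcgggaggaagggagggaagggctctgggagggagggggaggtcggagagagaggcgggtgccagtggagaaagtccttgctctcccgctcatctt
Vegfd: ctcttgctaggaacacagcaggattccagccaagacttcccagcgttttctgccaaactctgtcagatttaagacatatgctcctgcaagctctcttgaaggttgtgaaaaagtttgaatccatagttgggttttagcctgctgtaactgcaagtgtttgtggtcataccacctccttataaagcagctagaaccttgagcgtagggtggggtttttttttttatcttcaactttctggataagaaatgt
Vegfa, first start: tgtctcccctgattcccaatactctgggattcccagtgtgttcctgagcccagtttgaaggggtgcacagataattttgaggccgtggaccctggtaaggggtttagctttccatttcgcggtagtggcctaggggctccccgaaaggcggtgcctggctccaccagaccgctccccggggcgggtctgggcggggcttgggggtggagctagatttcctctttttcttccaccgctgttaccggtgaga
Vegfa, second start: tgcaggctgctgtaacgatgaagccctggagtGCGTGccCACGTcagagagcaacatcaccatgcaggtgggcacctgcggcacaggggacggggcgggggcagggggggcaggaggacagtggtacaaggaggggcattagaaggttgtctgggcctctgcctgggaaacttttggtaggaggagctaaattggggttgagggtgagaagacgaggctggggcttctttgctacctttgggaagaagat
Pgf holds 1 match, with its first base at -124 from the start site, and Nrp1 holds 1 at -166, both of the GCGTG kind, whereas the windows of Vegfd and of the first Vegfa start hold none of the 3 motifs. The window of the second Vegfa start holds GCGTG at -218 and ACGTG at -211. On the minus strand this window lies downstream of the first Vegfa start, inside the gene. Its matches are thus not in front of the first start, and whether they have a regulatory role was not tested. The share of G and C was 42.4% for Vegfd, 59.2% for the first Vegfa start, 64.4% for Nrp1 and 68.4% for Pgf. All 10 members matched the promoter table, with 12 start sites. ACGTG or GCGTG occurred before 7 of the 12, and in 38.6% of 32851 such windows in the whole table. GGCGCC occurred before 2 of the 12, a second start site of Pgf and that of Vegfc, and in 9.59% of all windows. These matches describe letters only, and the absence of a match says nothing of sites outside the window.

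The knockdown was checked first on endoglin (Eng), read by 2 probe sets. Its signals were 108.2 with siENG and BMP-2, 298.5 with siCont and BMP-2 and 286.3 with siCont and vehicle for the brighter, and 45.3, 120.5 and 120.6 in the same order for the other, so both were lowest on the array labelled siENG. That array was also brighter as a whole. Its 2% trimmed mean signal was 165.3, against 142.8 with siCont and BMP-2 and 140.2 with vehicle, and kept probe sets had a median log2 ratio of 0.21 for siENG over siCont, both with BMP-2. Log2 ratios to siENG are therefore also given after subtraction of 0.21, as relative values. Between siCont BMP-2 and vehicle the corresponding median was 0.01. PDL fibroblast genes such as Col1a1, Postn and Fn1 had signals of 3277.9 to 6885.8 over the arrays, but 5 of the 16 markers measured (Thy1, Tnmd, Aspn, Dcn and Lum) stayed at 18.0 or below. Of 14 endothelial markers other than endoglin, 10 with siENG and BMP-2, 10 with siCont and BMP-2 and 11 with vehicle were no brighter than Bacillus control probe sets (up to 13.1), whose targets mouse RNA does not hold. Of the 14, 2 with siENG and BMP-2 (Egfl7 at 30.5 and Mmrn2 at 25.1), 0 with siCont and BMP-2 and 1 with vehicle reached 23.0. The highest was Egfl7 with vehicle, at 32.3, and Pecam1, Cdh5, Tie1 and Vwf, which define endothelium, did not exceed 7.2. The summed signal of the 14 was 139.7 with siENG and BMP-2, 128.8 with siCont and BMP-2 and 127 with vehicle. Of 12 pericyte and smooth muscle markers 6 with siENG, 5 with siCont and BMP-2 and 6 with vehicle reached 23.0, and of 9 leukocyte markers 3, 3 and 2, with summed leukocyte signals of 245.7, 144.2 and 164.7 in the same order of arrays. The 6 epithelial markers had summed signals of 61.7, 111.1 and 109.8, each marker at 26.9 or below. In bulk RNA, fewer cells of a type and less RNA per cell cannot be told apart.

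**Figure D1:**
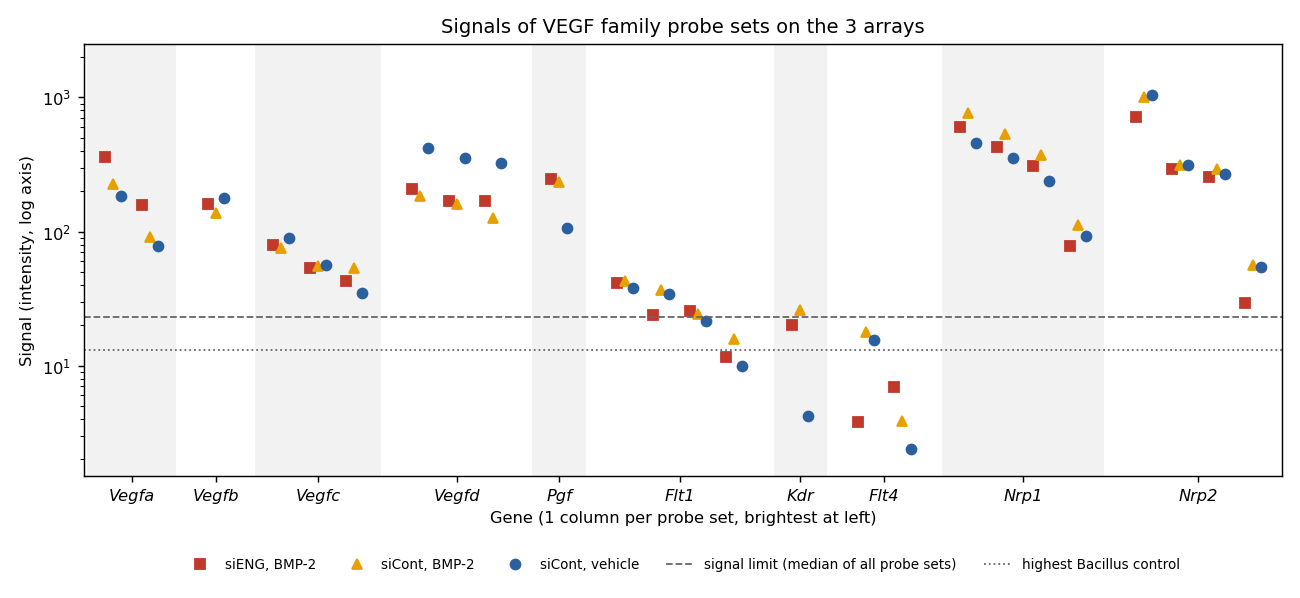
Signal (intensity, log axis) of each of the 25 VEGF family probe sets on the 3 arrays, grouped by gene, with 1 point per array (siENG BMP-2 squares, siCont BMP-2 triangles, siCont vehicle circles) and no error bars, since each condition has 1 array. The dashed line marks the signal limit of 23.0 and the dotted line the highest Bacillus control, 13.1. In Vegfd the vehicle circles lie above both BMP-2 arrays in all 3 probe sets, and in Pgf the vehicle circle lies below both.

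Comparison of siCont BMP-2 with siCont vehicle asks which members respond to BMP-2 alone. The 2 ligands with the clearest differences lay in opposite directions, with Pgf higher and Vegfd lower on the BMP-2 array, and the coreceptor Nrp1 was moderately higher. Of the 10 members 9 were kept, of which 2 (Pgf and Kdr) had a ratio of 2 or more, 1 (Vegfd) a ratio of 0.5 or less, and 6 lay between. Kdr was kept only through its BMP-2 signal of 25.8, since its vehicle signal of 4.2 lay within the range of the Bacillus controls. The background was 1.80% at a ratio of 2 or more and 1.57% at 0.5 or less, of 10810 genes passing the limit. After subtraction of the median the members counted were the same in number, against 1.78% and 1.59% of genes. The median log2 ratio was 0.17 over the 9 members and 0.01 over all genes. Both Pgf and Vegfd are among the genes the study selected from these same arrays, so their places here are not independent of that choice. Over probe sets, 22 of 25 were kept (not 1 of Flt1 and 2 of Flt4). The 8 whose log2 ratio exceeded 2 robust SD belonged to Pgf, Kdr, Vegfd and Nrp1. Vegfd and Nrp1 each gave more than 1 of these, and probe sets of the same gene are not independent. The share of all kept probe sets beyond 2 robust SD was not computed, so this count has no background.

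Pgf, a ligand of FLT1 first found in placenta, was read by 1 probe set. Its signal was 233.3 with siCont and BMP-2 and 106.9 with siCont and vehicle, a log2 ratio of 1.13 against a robust SD of 0.21. On the third array, siENG with BMP-2, the signal was 247.8. Both BMP-2 arrays were thus above vehicle, and the log2 ratio of siENG over siCont, 0.09, was smaller than its robust SD of 0.33 and became -0.12 as a relative value. Against vehicle, siENG with BMP-2 gave a log2 ratio of 1.21, or 0.99 relative.

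Vegfd, a ligand of FLT4 associated with lymphatic growth, was read by 3 probe sets, of which the brightest carries the suffix x, given to probe sets whose probes may also match other transcripts. Signals of the brightest were 206.6 with siENG and BMP-2, 182.8 with siCont and BMP-2 and 416.8 with vehicle. The second gave 169.0, 161.3 and 355.1 in that order, and the third 169.7, 125.2 and 321.4. In each probe set the vehicle array was highest and both BMP-2 arrays were well below it. Log2 ratios of siCont BMP-2 over vehicle were -1.19, -1.14 and -1.36, with robust SDs of 0.19, 0.19 and 0.21. Between siENG and siCont, both with BMP-2, they were 0.18, 0.07 and 0.44, or -0.03, -0.14 and 0.23 relative, so their sign depended on the scaling and on the probe set. Log2 ratios of siENG with BMP-2 over vehicle, -1.01, -1.07 and -0.92, were negative in all 3, also as relative values (-1.23, -1.29 and -1.14).

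Vegfa, the principal angiogenic ligand and a known target of hypoxia-inducible factors, differed in the other comparison. Of its 2 probe sets the brighter read 359.2 with siENG and BMP-2, 226.6 with siCont and BMP-2 and 182.5 with vehicle, and the second 158.1, 91.2 and 77.8 in that order. Both placed the siENG array above either siCont array. The log2 ratios of siCont BMP-2 over vehicle were 0.31 and 0.23, with robust SDs of 0.21 and 0.29. With BMP-2 present, siENG over siCont gave log2 ratios of 0.66 and 0.79, about 2 robust SD (0.33 and 0.39). As relative values these were 0.45 and 0.58, both below 2 robust SD. Over vehicle, siENG with BMP-2 gave ratios of 1.97 and 2.03, or 1.69 and 1.74 relative.

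Vegfb and Vegfc stayed between the ratios of 0.5 and 2 in both comparisons. Vegfb, a ligand of FLT1 linked to metabolism in heart and muscle, was read by 1 probe set, with signals of 159.4 with siENG and BMP-2, 137.2 with siCont and BMP-2 and 177.6 with vehicle. BMP-2 over vehicle gave a log2 ratio of -0.37, with a robust SD of 0.21, and siENG over siCont gave 0.22, or 0.01 relative. Vegfc, the main lymphangiogenic ligand in development, had 3 probe sets that differed in direction as deposited, of which the brightest also carries the suffix x. For BMP-2 over vehicle their log2 ratios were -0.24, -0.02 and 0.61, and for siENG over siCont 0.07, -0.06 and -0.33. As relative values siENG over siCont gave -0.14, -0.27 and -0.54, all below 0. The dimmest of them had signals of 42.6 with siENG and BMP-2, 53.6 with siCont and BMP-2 and 35.1 with vehicle, where the robust SDs were 0.45 and 0.42.

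**Figure D2:**
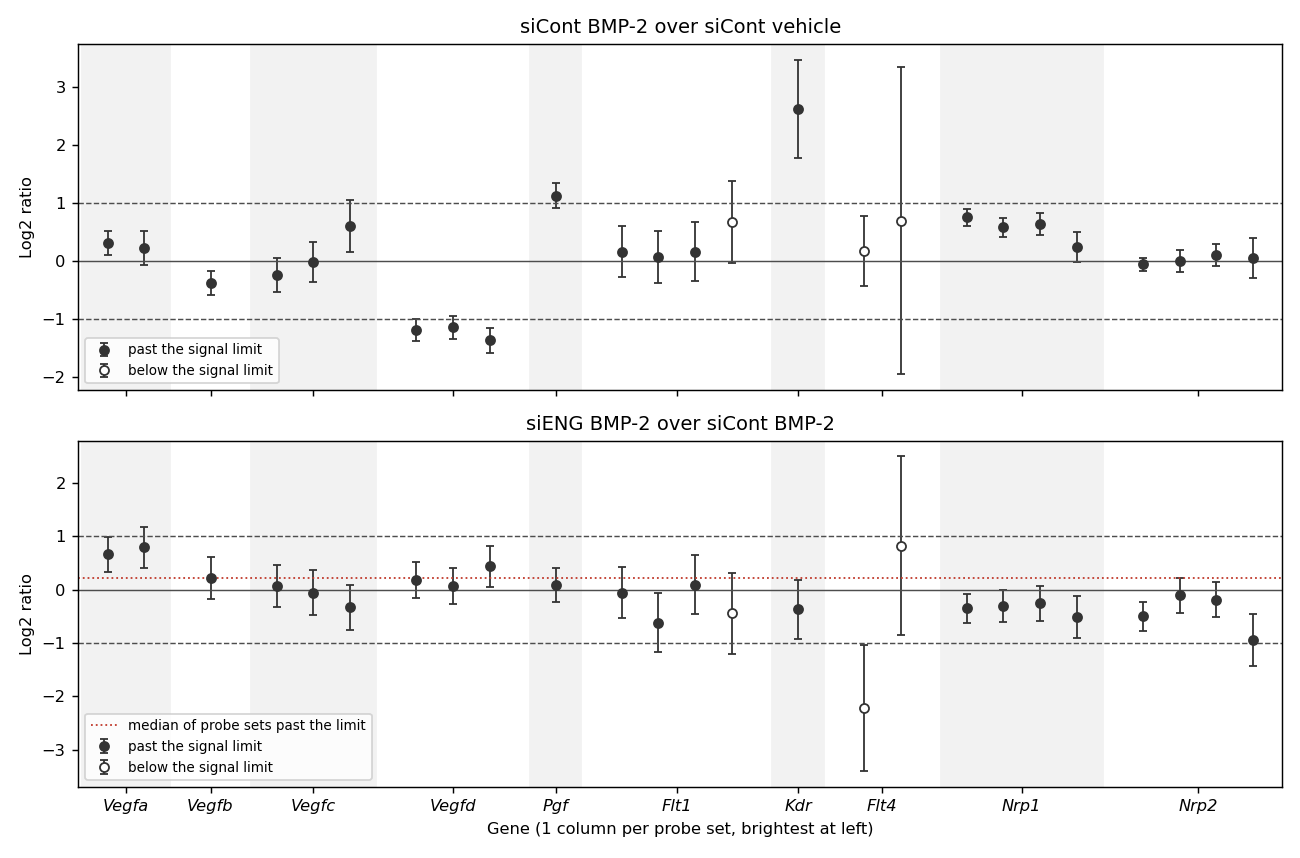
Log2 ratio of each VEGF family probe set for siCont BMP-2 over siCont vehicle (upper panel) and siENG BMP-2 over siCont BMP-2 (lower panel). Bars span 1 robust SD of the log2 ratios of probe sets of similar signal to each side, filled points passed the signal limit of 23.0 and open points did not, dashed lines stand at ratios of 2 and 0.5, and a dotted line gives the median of kept probe sets (0.21). The 3 Vegfd points lie below -1 in the upper panel, and the 2 Vegfa points lie above the dotted line in the lower one.

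Among the kinase receptors, signals were low on all arrays. Kdr (VEGFR2) was read by 1 probe set with signals of 20 with siENG and BMP-2, 25.8 with siCont and BMP-2 and 4.2 with vehicle. The vehicle signal lay within the range of the Bacillus controls. Against the highest of these, 13.1, Kdr was at least 1.97-fold higher with siCont and BMP-2 than with vehicle, so its count at a ratio of 2 or more rests on a signal that is not measured above the controls, and the gene was kept only through the array on which it was higher. Between siENG and siCont its log2 ratio was -0.37, with a robust SD of 0.56. Flt1 (VEGFR1), which binds VEGF-A, VEGF-B and PGF and also occurs as a soluble trap, had 4 probe sets, all at 42.9 or below on every array. The brightest had signals of 41.3 with siENG and BMP-2, 42.9 with siCont and BMP-2 and 38.2 with vehicle, differences well within the robust SD. Of its other kept probe sets, 1 gave -0.62 (log2) between siENG and siCont, or -0.83 relative, with a robust SD of 0.56. Flt4 (VEGFR3), the lymphatic receptor, did not reach the signal limit on any array. Its brighter probe set had signals of 3.8 with siENG and BMP-2, 17.7 with siCont and BMP-2 and 15.6 with vehicle, and its second 6.9, 3.9 and 2.4, the last 3 all within the Bacillus range. Set against the highest control, the brighter was at least 1.35-fold lower with siENG than with siCont, both with BMP-2. Its log2 ratio there was -2.22, with a robust SD of 1.18. That of the second was 0.82, in the other direction, with a robust SD of 1.68. As to the lymphatic endothelium that uses FLT4, 4 of 5 markers measured lay within the Bacillus range on each array. Among these, Prox1 and Lyve1 did not exceed 9.4. The other marker, Pdpn, passed the signal limit on every array, with 27.1 with siENG and BMP-2, 39.9 with siCont and BMP-2 and 36.3 with vehicle.

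The coreceptors had signals well above the controls, and Nrp1 was moderately higher with BMP-2 in 3 of its 4 probe sets. Nrp1, which binds VEGF-A forms with a heparin-binding tail as well as SEMA3A, has 4 probe sets. Signals of the brightest were 598.8 with siENG and BMP-2, 764.8 with siCont and BMP-2 and 453.9 with vehicle, the second 430.1, 532.0 and 354.4, and the third 309.1, 369.1 and 237.8. In each of these the siCont BMP-2 array was highest, the vehicle array lowest and the siENG array between them. Log2 ratios of BMP-2 over vehicle were 0.75, 0.59 and 0.63, with robust SDs of 0.15, 0.17 and 0.19. The fourth probe set, with signals of 77.9, 110.9 and 93.2 in the same order of arrays, had a log2 ratio of 0.25 with a robust SD of 0.26, and there the siENG array was the lowest. For siENG over siCont, both with BMP-2, the 4 log2 ratios lay between -0.51 and -0.26, and relative to all kept probe sets they were -0.56, -0.52, -0.47 and -0.72, with robust SDs of 0.27, 0.30, 0.33 and 0.40. No probe set of Nrp1 reached a ratio of 2 or of 0.5 in either comparison.

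Nrp2, which binds VEGF-C, VEGF-D and SEMA3F, showed a different order. Its brightest probe set had signals of 709.6 with siENG and BMP-2, 1005.2 with siCont and BMP-2 and 1039.3 with vehicle. The siCont arrays were near each other and the siENG array was lower, with a log2 ratio of -0.05 for BMP-2 over vehicle (robust SD 0.11) and of -0.50 for siENG over siCont (robust SD 0.27, relative value -0.71). The other 3 probe sets had log2 ratios of 0.00, 0.11 and 0.05 for BMP-2 over vehicle. Between siENG and siCont they gave -0.11, -0.19 and -0.94, or -0.32, -0.40 and -1.15 relative. The last of these, below a ratio of 0.5 as a relative value, was the dimmest, with signals of 29.4 with siENG and BMP-2, 56.4 with siCont and BMP-2 and 54.4 with vehicle. All 4 probe sets were lowest on the siENG array, whereas the size of the difference was not the same among them.

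Comparison of siENG with siCont, both with BMP-2, asks which members depend on endoglin during BMP-2 treatment. Of 9 members kept, 0 had a ratio of 2 or more and 0 a ratio of 0.5 or less, as deposited and as relative values. Over 10854 genes kept, 4.04% (438) reached a ratio of 2 and 1.66% (180) a ratio of 0.5 or less, and as relative values 2.32% (252) and 2.70% (293). The median log2 ratio of the 9 members was 0.07, against 0.24 over all genes, and -0.14 relative, against 0.03. As deposited 5 of the 9 members were above 0, and as relative values 2 were, Vegfa and, at 0.01, Vegfb. Of 22 probe sets kept, the 2 of Vegfa exceeded 2 robust SD as deposited. As relative values the 3 that exceeded it belonged to Nrp1 and Nrp2. The share over all probe sets was not computed for these counts either. The siCont BMP-2 array enters both comparisons, so their values are given side by side only. Set against vehicle, which changes siRNA and BMP-2 at once, siENG with BMP-2 had 8 members kept, 1 (Pgf) at a ratio of 2 or more and 1 (Vegfd) at 0.5 or less, with 3.99% and 1.73% of 10847 genes beyond these ratios. As relative values 0 members were at 2 or more (Pgf was at 1.99) and 1, Vegfd, was at 0.5 or less, with 2.25% and 2.85% of genes.

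**Figure D3:**
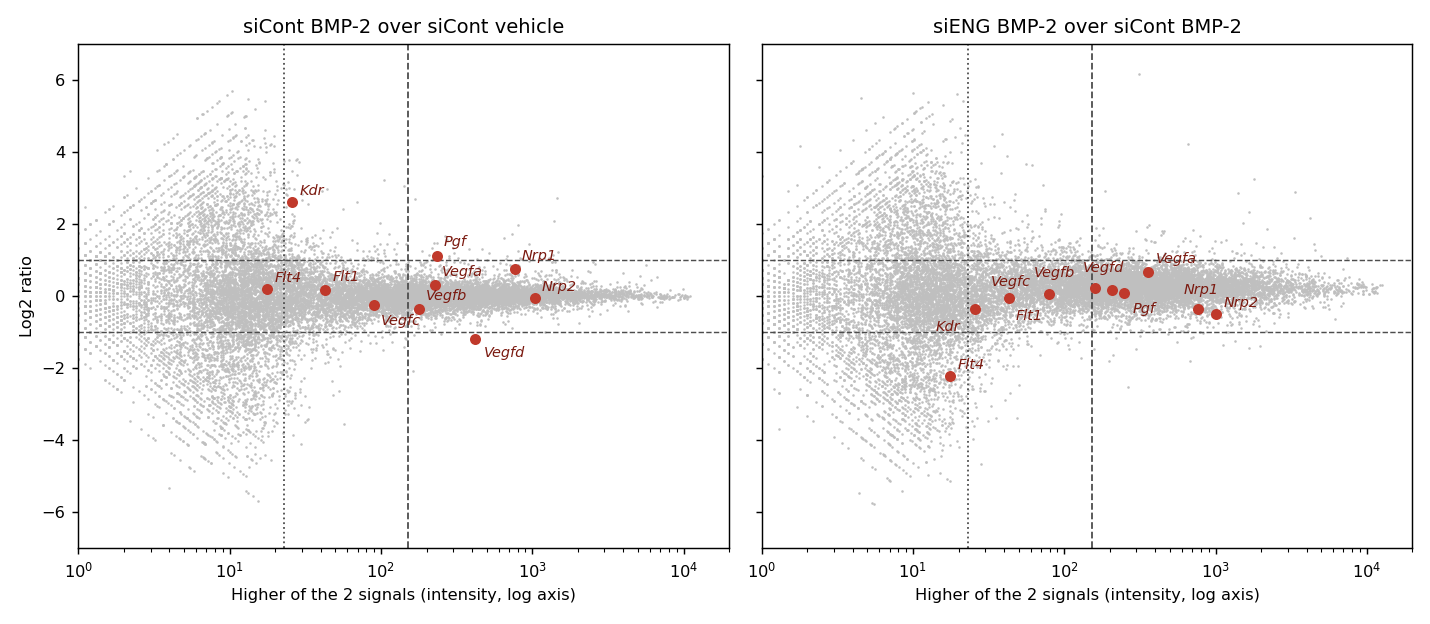
Each gene's log2 ratio (vertical) and its brighter signal in that pair of arrays (horizontal, intensity, log axis) for siCont BMP-2 over siCont vehicle (left) and siENG BMP-2 over siCont BMP-2 (right), with 1 grey point per gene and the VEGF family in red. Dashed horizontal lines stand at ratios of 2 and 0.5. The vertical lines stand at the signal limit, 23.0, and at 151.7, the 75th percentile. On the left Pgf lies above a ratio of 2 and Vegfd below 0.5 at signals over 151.7, and Kdr lies at a low signal, where grey points spread widely, and on the right no member right of the dotted line lies outside ratios of 0.5 to 2.

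Genes that act with the family were described by lists. Of 18 measured genes that process or trap VEGF ligands 10 were kept in each comparison, and all 10 lay between the ratios in both. Furin, a protease that cleaves pro-VEGF-C and pro-VEGF-D, had signals of 131.9 with siENG and BMP-2, 198.7 with siCont and BMP-2 and 212.1 with vehicle. Pcsk7, a related protease, had 243.9, 151.3 and 191.4 in the same order, 0.69 on the log2 scale between siENG and siCont (0.48 relative). Thbs1, an inhibitor of angiogenesis, had signals of 1468.4 with siENG and 2448.8 with siCont, both with BMP-2, a log2 ratio of -0.74 (-0.95 relative). Ccn2, a matrix protein that binds VEGF-A, had signals of 3975.9 (siCont, BMP-2) and 2566.9 (vehicle), a log2 ratio of 0.63.

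Of 36 measured genes of VEGF receptor signalling, 34 were kept for BMP-2 over vehicle, and 1 reached a ratio of 2, against 1.80% of all genes. That gene was the adaptor Shc2, exactly at the ratio of 2 and just under it as a relative value. Its signals were 24.8 (siCont, BMP-2) and 12.4 (vehicle), of which the vehicle signal lay within the Bacillus range. Shc2 was kept only through the array on which it was higher. In the knockdown comparison 33 were kept and all 33 lay between. The adaptor Shb, which binds KDR, had a log2 ratio of 0.72 in that comparison, the GTPase Rac1 of 0.65 and the transcription factor Egr3 of -0.71 (relative values 0.51, 0.44 and -0.92). The median log2 ratio of the list was -0.02 for BMP-2 over vehicle and 0.19 for siENG over siCont.

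Neuropilins also carry class 3 semaphorin signals, with plexins as partners. Of 13 such genes 12 were kept in each comparison, with 1 at a ratio of 2 or more and 0 at 0.5 or less in both. The shares over all genes were 1.80% and 1.57% for BMP-2 over vehicle, and 4.04% and 1.66% for siENG over siCont. Plxnd1, a receptor of semaphorins in vessels, had signals of 613.7 with siENG and BMP-2, 1040.6 with siCont and BMP-2 and 644.7 with vehicle. Its log2 ratios were 0.69 for BMP-2 over vehicle and -0.76 for siENG over siCont (-0.97 relative), with robust SDs of 0.15 and 0.27. Like all 4 Nrp1 probe sets, it was highest on the siCont BMP-2 array. Plxna4 was the gene at a ratio of 2 with BMP-2, but its vehicle signal of 6.2 lay within the Bacillus range, and it was at least 2.01-fold higher with siCont and BMP-2. Sema3b, a semaphorin known as an antagonist of VEGF, had signals of 105.2 with siENG and BMP-2, 40.0 with siCont and BMP-2 and 57.1 with vehicle, 2.63 times as high with siENG as with siCont (relative log2 value 1.19). Sema3d had 27.8, 32.3 and 57.9 in the same order.

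The platelet-derived growth factors (PDGFs) are the structural relatives of the VEGFs. Of 7 PDGF ligands and receptors 6 were kept, and all 6 lay between the ratios in both comparisons. Pdgfb, a recruiter of pericytes, had signals of 196.0 with siENG and 116.3 with siCont, both with BMP-2 (log2 ratio 0.75, relative 0.54), and Pdgfra, a receptor of mesenchymal cells, had a log2 ratio of 0.60 for BMP-2 over vehicle, with signals of 88.0 with BMP-2 and 58.2 with vehicle. Pdgfrb had signals of 1839.2 with siENG and BMP-2, 2162.4 with siCont and BMP-2 and 1661.7 with vehicle. Pdgfa had 459.6, 349.9 and 322.9. Of 7 angiopoietins, related proteins and Tie receptors, 3 were kept for BMP-2 over vehicle and 2 for siENG over siCont, with Angpt2 at a log2 ratio of -0.80 in the second (-1.01 relative, robust SD 0.56).

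Since Vegfa is a target of hypoxia-inducible factors, it was set beside 35 measured hypoxia-responsive genes. For siENG over siCont, both with BMP-2, 32 of these were kept, 20 had a ratio of 2 or more and 0 a ratio of 0.5 or less, where the share over all genes was 4.04% and 1.66%. As relative values 16 had a ratio of 2 or more, against 2.32% of all genes. Their median log2 ratio was 1.22 (1.01 relative), and 24 of the 32 lay above Vegfa at 0.66 and 8 below it. Pdk1, a kinase that restrains pyruvate oxidation, had signals of 655.8 with siENG and BMP-2, 34.8 with siCont and BMP-2 and 49.2 with vehicle, and Ero1a, an oxidase of the endoplasmic reticulum, 1791.5, 189.7 and 211.1. Ankrd37 had 311.0, 4.3 and 14.1, at least 23.7-fold higher with siENG than with siCont, both with BMP-2. Ankrd37 and Ak4, both among the 20, were kept only through the siENG array, on which they were higher. Car9 was kept in the same way and lay between the ratios. Other members of the list were not higher with siENG. Pfkfb4, a regulator of glycolysis, had 169.8, 270.5 and 176.8 (log2 ratio of siENG over siCont -0.67), and Lox, which cross-links collagen, had 6042.1, 6932.9 and 6716.1 (-0.20), both named after their values were seen. For BMP-2 over vehicle the list had a median log2 ratio of -0.05, with 1 of 30 kept genes at a ratio of 2 or more and 1 at 0.5 or less (Aldoc, kept through its vehicle signal of 25.8). The shares over all genes there were 1.80% and 1.57%. Of 7 genes for hypoxia-inducible factors, their partners and regulators, all 7 lay between the ratios in both comparisons as deposited (as a relative value Hif3a was at -1.07 with siENG), and Vhl, which targets these factors for degradation, had signals of 267.7, 171.3 and 180.6. The list of hypoxia-responsive genes was drawn up with earlier results of these arrays known, and its part in the Vegfa values was not tested.

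**Figure D4:**
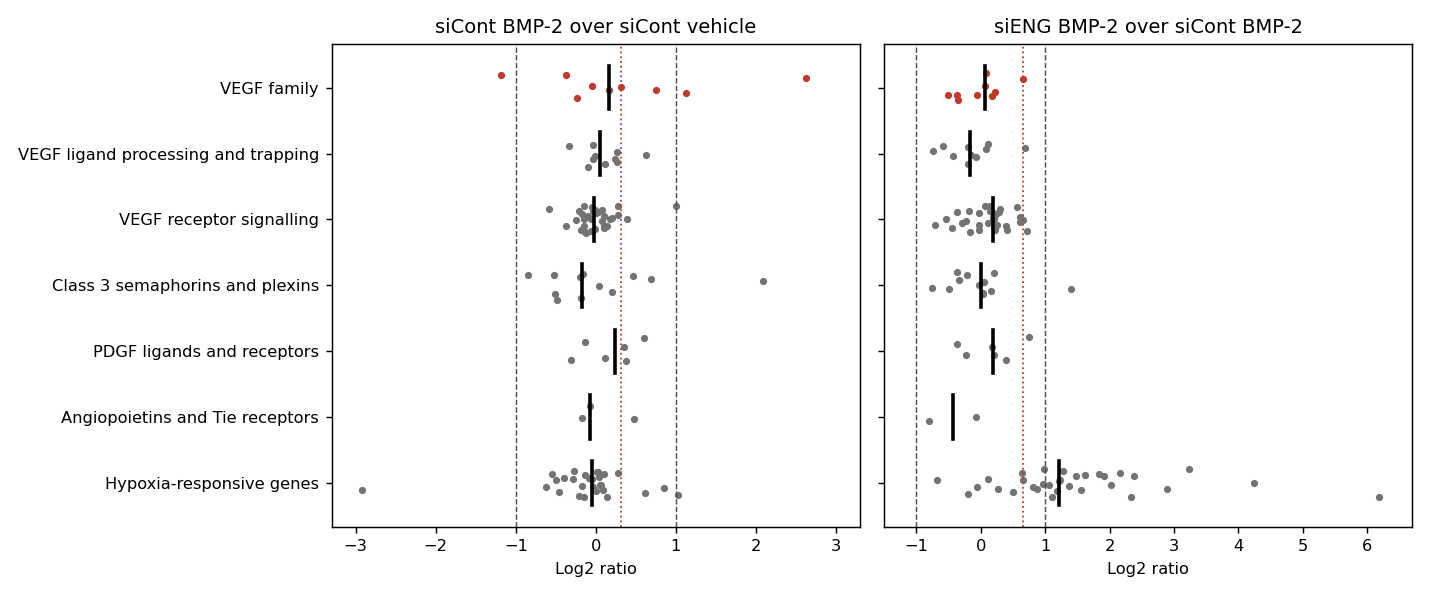
Log2 ratios of kept genes for siCont BMP-2 over siCont vehicle (left) and siENG BMP-2 over siCont BMP-2 (right), with 1 row per list and 1 point per gene, jittered vertically. Black bars are list medians, dashed lines stand at ratios of 2 and 0.5, and Vegfa is marked by the red dotted line. On the right the hypoxia-responsive genes have a median of 1.22 and most lie to the right of Vegfa, and the other 6 rows have medians between -0.44 and 0.19. Cell type marker lists are not drawn.

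The genes nearest to 3 ligands in the plane of the 2 log2 ratios were sought among 7187 genes whose brightest probe set reached 151.7 on at least 1 array, with 3 arrays and thus only 2 ratios behind each likeness. Nearest to Vegfd were Mgat3 (a glycosyltransferase of N-glycans), the aggrecanase Adamts5, Stard10, Adgre5 and Irf2bpl, at distances of 0.126 to 0.34 log2 units. Adamts5 had signals of 663.7 with siENG and BMP-2, 603.8 with siCont and BMP-2 and 1209.8 with vehicle. Nearest to Pgf were Gse1, Rgs3, the matrix proteoglycan Fmod, the metalloprotease Adam12 and Myo1d, at 0.142 to 0.181. Fmod had signals of 792.8, 810.1 and 340.8 in the same order of arrays. Nearest to Vegfa were Isca2, Hsd17b12, Fut10, Tmem39a and Yif1a, at 0.00884 to 0.0317.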

How the data were processed

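Total RNA of PDL-L2 cells was labelled with biotin and read on Mouse Genome 430 2.0 arrays, 1 per condition. Each deposited table column holds a linear signal intensity for 45101 probe sets, made by the authors. Per the labels, GCOS 1.4 was used, and no source used here gives the signal algorithm or the scaling between arrays. An unequal scaling would shift all ratios to 1 array alike. The 64 control probe sets were left out. Gene symbols are those of the platform annotation, brought up to date by Entrez identifier with a RefSeq table (assembly GRCm38.p6). A single gene was found for 34945 mouse probe sets, several for 932 and none for 9160. Genes of the lists without such a probe set are not analysed here. Signals of 0 (3 with vehicle and 1 with siCont and BMP-2) were set to 0.1.

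No scaling was applied before log2 ratios were taken. Where a gene had several probe sets, that with the highest mean of log2 signals over the arrays stood for it, and the limit was a signal of 23.0. The robust SD (1.4826 times the median absolute deviation) was computed over all mouse probe sets in 20 bins of mean log2 signal. With 1 array per condition no significance test was made, and the number of arrays limits the precision. A signal at or below 13.1, the highest of 27 Bacillus control probe sets, was replaced by 13.1 to give a bound on a ratio. The members and gene lists were chosen with earlier results of these data known. Genes named from the lists were, for each list, up to 4 kept genes with the largest absolute log2 ratio in either comparison, with a few markers picked after their values were seen. For Vegfa, Vegfd and Pgf the 5 genes nearest by Euclidean distance were named. The code that forms and counts ratios was tested on simulated signals. Alternatives were the signal limit, a floor, 4 scalings between arrays and 2 treatments of several probe sets. Promoter windows came from RefSeq. Python 3.11.15 was used with numpy 2.4.6, pandas 2.3.3, statsmodels 0.14.6 and matplotlib 3.10.9.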

Additional observations from a re-analysis of the deposited data

How the results depend on the processing

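No paired analysis was possible because each condition has 1 array and no label carries a replicate number, and for the same reason no array could be left out. The counts of VEGF family members changed under few alternatives. For BMP-2 over vehicle, 1 member in place of 2 had a ratio of 2 or more when the 75th percentile of signal was the limit and with signals below the median set to the median, since Kdr was then lost and Pgf kept. For siENG over siCont, both with BMP-2, 1 member (Flt4) had a ratio of 0.5 or less without a limit. Of 120 values of single members under 6 alternatives, 5 moved by more than the robust SD. Many of these values could not move. Median centring and equal trimmed means shift all ratios of a comparison by a constant smaller than each member's robust SD. A floor leaves signals above it unchanged, and a mean over probe sets leaves members with 1 probe set unchanged. This count is therefore no measure of stability. Vegfa stayed between 0.44 and 0.73 (log2) for siENG over siCont, Pgf between 1.10 and 1.13 and Vegfd between -1.23 and -1.19 for BMP-2 over vehicle, while Pgf and Vegfd for siENG over siCont turned sign under 4 of 6 alternatives each, and Vegfc under 5. Nrp1 with BMP-2 was 0.56 as the mean over its probe sets, against 0.75.

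Counts over all genes moved more. For BMP-2 over vehicle the counts at a ratio of 2 or more and at 0.5 or less were 1825 and 1883 without a limit, 34 and 5 when the 75th percentile was the limit, 78 and 43 with the floor, and 366 and 312 with any probe set, against 195 and 170. For siENG over siCont they were 2160 and 1906, 125 and 20, 270 and 45, and 776 and 316 under the same settings, against 438 and 180. Scaling gave 277 at a ratio of 2 or more after quantile normalization, 252 and 293 after median centring, 248 and 287 after lowess centring, and 229 and 316 with equal 2% trimmed means. The cause was not tested beyond the construction of each setting. Signals near the Bacillus controls limit what can be said of Kdr, Flt4 and the dimmest probe set of Flt1.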
